A study of Homo sapiens with 16 samples.

Results

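The 9 genes described here, MAP3K14, MKNK1, MOB3C, VMP1, HOMER2, SNX8, ARHGEF17, AP1B1 and RNF19B, code for proteins of intracellular signalling and membrane trafficking. They were taken by gene symbol from the study's list of genes induced by interleukin 4 (IL4) in primary B lymphocytes. That list did not come from the libraries used here, but the 9 were chosen from it with earlier results of these data known. They are 9 of the 62714 genes in the files, and the core of that list held 24 other genes. Each of the 9 was found once in the files and passed the low-count filter in every comparison.

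Expression was measured by RNA sequencing of ribosomal RNA-depleted RNA from 4 established human B-cell lymphoma lines, SU-DHL4 (line 1), DOHH2 (line 4), and SUDHL10 and OCILY7 (lines 2 and 3, whose titles and cell line entries name them in opposite order). Each line was given Cas9 and 4 guides, delivered by lentivirus, against CREBBP or against the control site AAVS, and was kept as a pool of targeted cells rather than as a clone. Each pool was left untreated (baseline) or given 10 ng/ml of IL4 for 4 h. This gave 16 libraries, 1 per line in each of 4 groups, called AAVS baseline and AAVS IL4 for the control pools and CREBBP baseline and CREBBP IL4 for the CREBBP-targeted pools.

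IL4 binds its receptor on B cells and activates Janus kinases, which phosphorylate the transcription factor STAT6. STAT6 then enters the nucleus and binds palindromic sites in the control regions of its target genes, where CREBBP, a histone acetyltransferase, acts as a coactivator for many transcription factors. In B cells this pathway is known for class switching to IgE and for raising surface molecules such as CD23. The 9 genes have different tasks in the cell. MAP3K14 (NIK) is the kinase that starts non-canonical NF-kappaB signalling, MKNK1 phosphorylates the cap-binding factor eIF4E, and MOB3C belongs to the MOB family of kinase adaptors. HOMER2 is a scaffold protein, ARHGEF17 is a guanine nucleotide exchange factor, and RNF19B is an RBR-type ubiquitin ligase. VMP1 is an endoplasmic reticulum protein needed to form autophagosomes, SNX8 is an endosomal sorting nexin, and AP1B1 is the beta subunit of the clathrin adaptor AP-1.

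Total counts ranged from 19649735 to 61981976 per library and were lowest, by their group median, in AAVS IL4. CREBBP transcript levels overlapped between the pools, at 69.9 to 278 CPM (counts per 1000000 counts of the library) in the CREBBP pools and 190.5 to 379 CPM in the AAVS pools. By line, the CREBBP pool was the lower in 2 of 4 lines at baseline and in 4 of 4 with IL4, where lines 1 to 4 had 214, 69.9, 245 and 218.5 CPM against 315, 190.5, 314.5 and 379 CPM in the AAVS pools. Transcript level does not test whether Cas9 cuts removed the protein. The study reported loss of CREBBP protein in the targeted pools of these lines by immunoblotting. The germinal centre B-cell markers (8 genes, among them PAX5 and BCL6) were present in all 16 libraries, with summed levels of 3102 to 5705 CPM. The 4 AAVS IL4 libraries stood apart from the other 12 in genes of other cell types. Mature IgM B-cell markers summed to 469 to 3654 CPM in AAVS IL4 and to at most 33.2 CPM elsewhere, and in 6 of these 7 genes all 4 AAVS IL4 libraries lay above all others. The remaining gene, FCER2 (CD23), is named by the study as a STAT6 target. It was at 17.5 to 212 CPM in AAVS IL4 and at most 21.3 CPM elsewhere. IGHM, the heavy chain of IgM, stood at 951, 711, 1711 and 138 CPM in lines 1 to 4 of AAVS IL4 and at no more than 0.0696 CPM in the other 12 libraries.

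The same separation was seen for 10 of 13 T-cell markers, 3 of 7 NK-cell markers, 2 of 10 monocyte and macrophage markers, 2 of 6 plasma cell markers, 1 of 7 stromal and endothelial markers and 0 of 8 germinal centre B-cell markers. The share of all genes with this separation was not counted. Under the looser condition of lying above AAVS baseline only, it was 6.34% of the 20310 genes tested. Summed T-cell markers were at 120 to 253 CPM in AAVS IL4 and at 89.8 to 182 CPM elsewhere, where LCK made up most of the sum. CD2 was at 0 in the other 3 groups and at 0.566 to 7.69 CPM in AAVS IL4, and CDH5 was at 0 in all libraries. Summed NK-cell markers reached 5.30 to 32.8 CPM in AAVS IL4 against at most 2.27 CPM elsewhere, and monocyte and macrophage markers 6.13 to 27.8 CPM against at most 4.45 CPM. Their part in the results on the 9 genes was not tested. Every comparison with AAVS IL4 rests on these 4 libraries, so only the comparisons of IL4 with baseline in the CREBBP pools and of CREBBP with AAVS pools at baseline are free of them. More RNA from other cells and more RNA per cell cannot be told apart in bulk libraries.

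**Figure D1:**
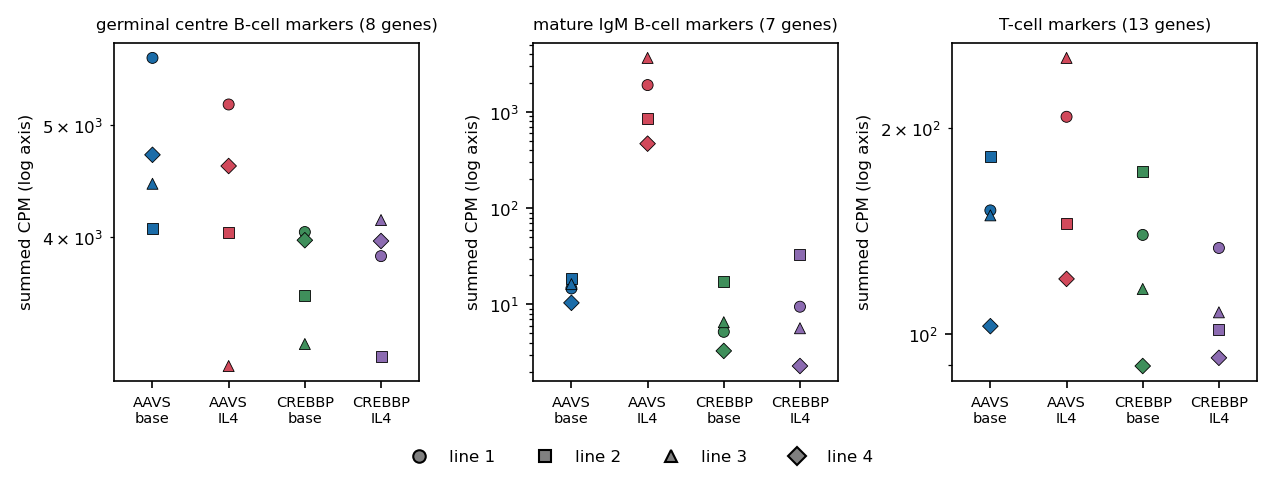
Summed CPM (log axes) of 3 marker lists in each library, by group, with 1 symbol per line. The mature IgM B-cell markers reach 469 to 3654 CPM in AAVS IL4 and no more than 33.2 CPM in the other 12 libraries, while the germinal centre B-cell markers lie between 3102 and 5705 CPM in all 16.

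IL4 in the AAVS pools showed which of the 9 genes were higher after the cytokine in pools not targeted at CREBBP. MOB3C and SNX8 rose (adjusted p under 0.05, edgeR's quasi-likelihood test), which is 2 of 9 genes beside 2.39% of the 20310 genes tested. Of the other 7 genes, 6 were also higher after IL4 in 4 of 4 lines, with unadjusted p under 0.05 and adjusted p between 0.0725 and 0.184, and RNF19B was not. In all, 8 of 9 had an unadjusted p under 0.05 in the higher direction (12.4% of all genes), 8 of 9 were higher in 4 of 4 lines (17.5% of all genes), and in 6 of 9 (MAP3K14, MKNK1, MOB3C, VMP1, HOMER2 and SNX8) the lowest treated library lay above the highest untreated one (6.34% of all genes). The median fitted log2 fold change of the 9 genes was 1.41, against 0.0142 over all genes tested and 2.36 over the 23 other core genes that could be tested, of which 10 passed the test.

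**Figure D2:**
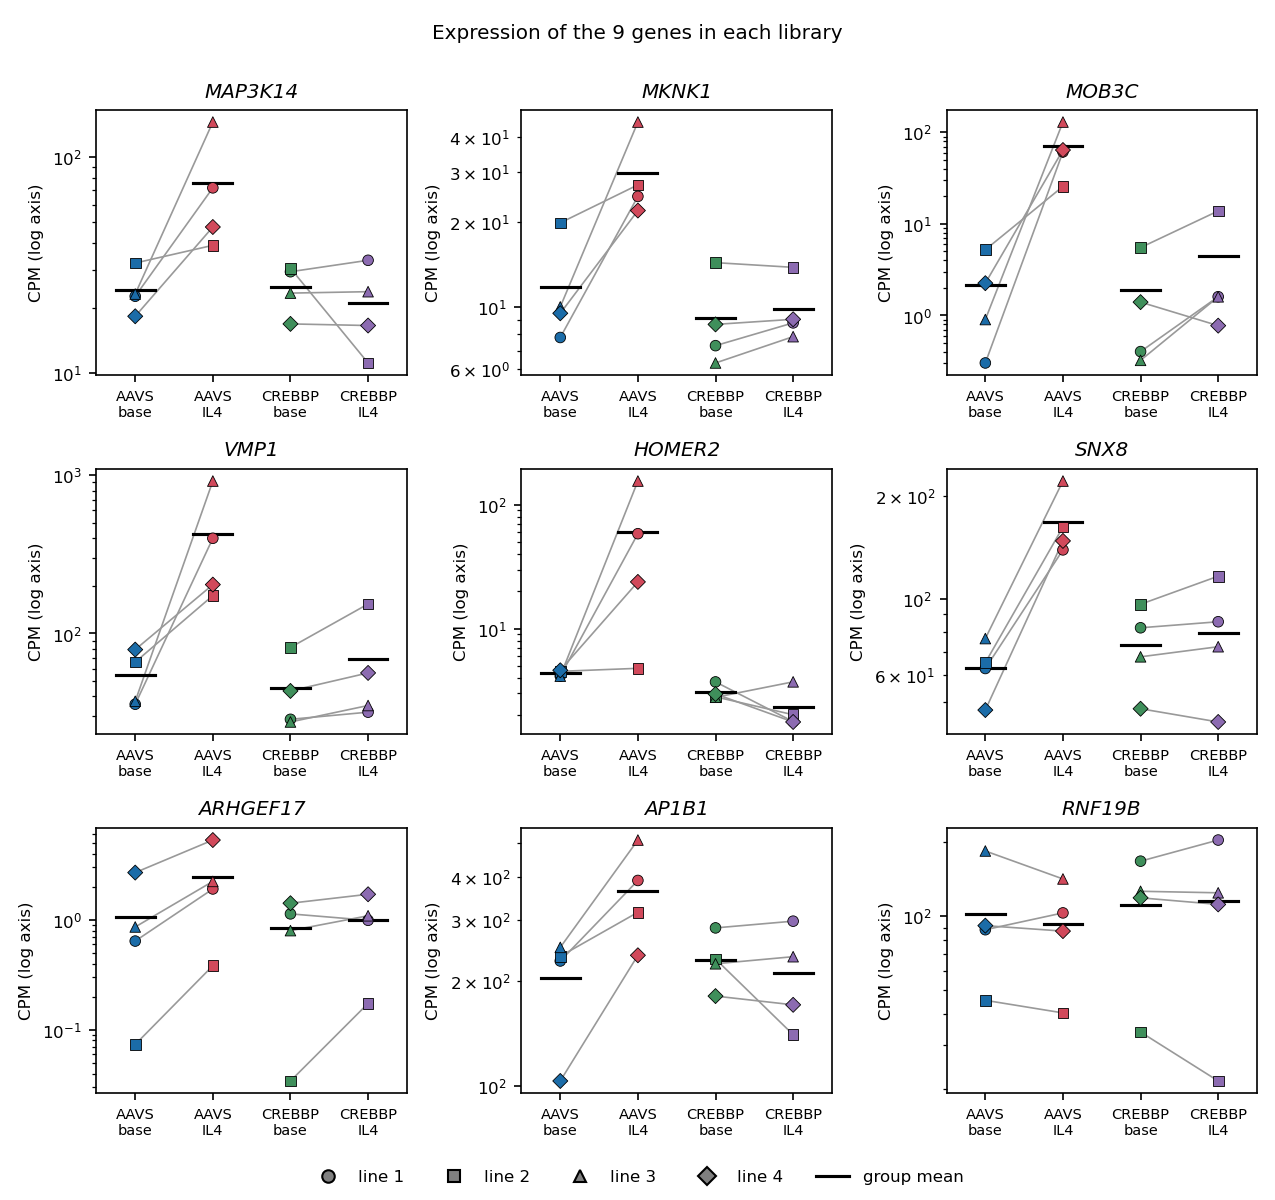
CPM (log axes) of each of the 9 genes in the 16 libraries, by group, with 1 symbol per line, grey lines joining the untreated and treated library of 1 pool, and black bars for group means. In 6 panels (MAP3K14, MKNK1, MOB3C, VMP1, HOMER2 and SNX8) the 4 AAVS IL4 libraries lie above the 4 AAVS baseline libraries, and RNF19B has no such shift.

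MOB3C had the widest change among the 9 genes. In lines 1 to 4 it stood at 0.303, 5.22, 0.903 and 2.25 CPM in the untreated AAVS pools and at 61.2, 25.7, 129.7 and 64.2 CPM after IL4. The groups were far apart, from means of 2.17 ± 2.19 to 70.2 ± 43.3 CPM (SD, n = 4), and the line with the highest untreated level, line 2, had the lowest treated level. The fitted log2 fold change was 5.43 (SE 0.98, adjusted p = 0.0475). In line 1 the rise went from 17 to 1569 counts. The call was not kept without line 1 (adjusted p = 0.146), line 3 (0.0741) or line 4 (0.139), while the fold change stayed between 4.67 and 5.77 on the log2 scale.

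MOB3C (ENSG00000142961, GRCh38 chr1:46607719-46616811, minus strand) lies within the span of MKNK1 (ENSG00000079277, chr1:46557407-46616843) on the same strand. In GENCODE 44, 1 of 31 MKNK1 transcripts starts beside MOB3C and shares 101 exon bases with it, which are 1.73% of the exon bases of MOB3C and 1.25% of those of MKNK1. The other MKNK1 transcripts begin at or below position 46604294, 3424 bases past the end of MOB3C. How reads over the shared bases were divided was set by RSEM, and levels per transcript were not analysed here.

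RefSeq promoters (GRCh38.p14) were found for 7 of the 9 genes, in 8 entries because MOB3C has 2 starts. The 250 bases before the start are shown for the 3 genes that passed a test in any comparison. They were searched for the palindromes TTCNNNGAA and TTCNNNNGAA, the forms of STAT sites with 3 and 4 bases between the arms. Each reads the same on both strands. The capitals mark the only match in the 8 entries, a TTCNNNGAA that begins 154 bases before the MOB3C start.
MOB3C, chr1:46616812-46617061, minus strand: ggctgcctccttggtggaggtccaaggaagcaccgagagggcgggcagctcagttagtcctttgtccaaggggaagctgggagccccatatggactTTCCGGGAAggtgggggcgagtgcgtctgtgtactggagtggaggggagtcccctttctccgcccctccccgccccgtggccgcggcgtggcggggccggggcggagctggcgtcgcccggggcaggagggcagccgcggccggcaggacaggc
SNX8, chr7:2314442-2314691, minus strand: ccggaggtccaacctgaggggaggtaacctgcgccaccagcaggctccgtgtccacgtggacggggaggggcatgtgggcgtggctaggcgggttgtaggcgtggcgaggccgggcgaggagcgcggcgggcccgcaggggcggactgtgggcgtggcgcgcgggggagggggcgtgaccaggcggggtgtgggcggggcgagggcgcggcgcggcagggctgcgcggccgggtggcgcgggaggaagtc
MAP3K14, chr17:45317021-45317270, minus strand: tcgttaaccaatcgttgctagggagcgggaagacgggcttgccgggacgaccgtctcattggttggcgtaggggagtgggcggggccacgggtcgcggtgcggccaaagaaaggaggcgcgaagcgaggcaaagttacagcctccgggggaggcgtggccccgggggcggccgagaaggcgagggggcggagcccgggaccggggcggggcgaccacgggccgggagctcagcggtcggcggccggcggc
Over 35116 RefSeq promoters of the same length, 6.57% held TTCNNNGAA, 5.38% held TTCNNNNGAA and 11.5% held either. A match is a run of letters and not a measured site, and binding was not measured in these files.

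SNX8 (ENSG00000106266, chr7:2251770-2354318, minus strand) rose by a similar factor in every line. Its levels were 62.6, 65.1, 76.5 and 47.3 CPM in the untreated AAVS pools and 139, 162, 220.4 and 147 CPM after IL4. The lowest treated library lay well above the highest untreated one, and the 4 lines rose 2.22- to 3.12-fold. The fitted log2 fold change was 1.35 (SE 0.18, adjusted p = 0.021), the smallest adjusted p of the 9 genes. The call was not kept without line 1 (adjusted p = 0.137) or line 4 (0.0794), where the log2 fold changes were 1.4 and 1.25.

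MAP3K14 (ENSG00000006062, chr17:45263119-45317029, minus strand) stood at 22.7, 32.3, 23.2 and 18.3 CPM in the untreated AAVS pools and at 72.0, 39.0, 145 and 47.4 CPM after IL4. The groups did not overlap, yet the fold by line ran from 1.21 in line 2 to 6.26 in line 3. The log2 fold change fitted for MAP3K14 was 1.43 (SE 0.34, adjusted p = 0.101). The antisense gene MAP3K14-AS1 shares 858 exon bases with MAP3K14 (15.1% of its exon bases) and had means of 4.36 CPM in AAVS baseline and 8.79 CPM in AAVS IL4. The methods for primary cells, to which those for the lines refer, name a stranded library kit. The strand setting of the counting is not given in the sources used here, so how reads from the shared bases were assigned is not known.

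MKNK1 was at 7.79, 19.9, 10.0 and 9.49 CPM before and at 24.7, 27.1, 45.2 and 22.0 CPM after IL4 in the AAVS pools. All treated libraries were above all untreated ones, by the smallest margin in line 2 (1.36-fold). Its fitted log2 fold change was 1.31 (SE 0.28, adjusted p = 0.0725).

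VMP1 (ENSG00000062716, chr17:59707192-59842255, plus strand) and HOMER2 (ENSG00000103942, chr15:82836946-82986153, minus strand) were higher after IL4 by uneven factors. VMP1 went from 35.7, 66.0, 37.3 and 79.1 CPM to 399.7, 174, 919 and 204 CPM, which is 11.2- and 24.6-fold in lines 1 and 3 and 2.63- and 2.58-fold in lines 2 and 4. HOMER2 went from 4.13, 4.51, 4.13 and 4.60 CPM to 58.4, 4.77, 156 and 23.8 CPM. Its untreated levels were the most even of any of the 9 genes (coefficient of variation 5.73%), and its treated levels spread from 1.06 times the untreated level in line 2 to 37.7 times in line 3. The fitted log2 fold changes were 2.64 (SE 0.58, adjusted p = 0.0828) for VMP1 and 2.89 (SE 0.82, adjusted p = 0.167) for HOMER2. The microRNA gene MIR21, which lies in the last part of VMP1 on the same strand, was listed at 0 in every library.

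AP1B1 (ENSG00000100280, chr22:29327680-29388583, minus strand) stood at 229, 236, 250.3 and 103 CPM before and at 390.1, 316, 510.0 and 237.5 CPM after IL4, 1.34- to 2.302-fold higher by line. Line 4 was the lowest before and after, and its treated level lay among the untreated levels of the other lines, so the groups overlapped although each line was higher. The fitted log2 fold change was 0.79 (SE 0.20, adjusted p = 0.116). ARHGEF17 (ENSG00000110237, chr11:73308276-73369388, plus strand) was the least abundant of the 9, with 0.642, 0.0736, 0.862 and 2.69 CPM before and 1.91, 0.383, 2.24 and 5.32 CPM after IL4. Line 2 rests on 3 and 13 counts, and the fitted log2 fold change was 1.41 (SE 0.42, adjusted p = 0.184).

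RNF19B (ENSG00000116514, chr1:32936445-32964809, minus strand) was the exception. It stood at 88.2, 45.6, 184 and 91.6 CPM in the untreated AAVS pools and at 103, 40.5, 142 and 87.1 CPM after IL4. It was higher in line 1 and lower in the other lines, with a fitted log2 fold change of −0.16 (SE 0.19, adjusted p = 0.665).

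The lines differed in the size of the response. The median log2 change of the 9 genes by line (on log2(CPM + 0.5)) was 1.6, 0.44, 2.12 and 1.35 in lines 1 to 4. On this scale line 3 had the largest change of the 4 lines in MAP3K14, MKNK1, MOB3C, VMP1 and HOMER2, and line 2 the smallest in MAP3K14, MKNK1, MOB3C, HOMER2, ARHGEF17 and AP1B1. As a ratio of CPM, MOB3C changed most in line 1, and ARHGEF17, at its few counts, changed most in line 2. The summed mature IgM B-cell markers of AAVS IL4 were likewise highest in line 3 (3654 CPM), followed by line 1 (1907 CPM), line 2 (865 CPM) and line 4 (469 CPM). Without line 2, 6 of the 9 genes passed the test, against 2 with it, and the share of all genes that passed as higher went from 2.39% to 4.9%.

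Set against exon length (CPM per kb of exon), the untreated AAVS pools held most RNF19B (37.4 CPM per kb) and AP1B1 (31.2), then SNX8 (10.9), VMP1 (5.45), MAP3K14 (4.26), MKNK1 (1.46), MOB3C (0.372), HOMER2 (0.296) and ARHGEF17 (0.108). The neighbours RNF19B and AP1B1, VMP1 and MAP3K14, and MOB3C and HOMER2 each changed places in 2 of 4 lines and so did not differ beyond their spread. With IL4, AP1B1 (55.4 CPM per kb) and VMP1 (42.4) came first, ahead of RNF19B (34.1) and SNX8 (29.1), but each of these was above the next in 3 of 4 lines and their ranges overlapped. MOB3C (12.03) moved beside MAP3K14 (13.4), which was the higher in 3 of 4 lines with overlapping ranges. HOMER2 (4.13) and MKNK1 (3.68) were each the higher in 2 of 4 lines, and ARHGEF17 stayed last (0.248).

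IL4 in the CREBBP pools was the same treatment in CREBBP-targeted cells. No gene passed the test there (0 of 18282, 0%), and so 0 of the 9 did, by edgeR and also by DESeq2. At an unadjusted p under 0.05, 1 of the 9 genes was higher (1.44% of all genes). The fitted log2 fold changes of the 9 ran from −0.42 (HOMER2) to 1.25 (MOB3C), with a median of 0.12 against −0.04 over all genes and 0.27 over 19 other core genes. No treated group lay wholly above or below its untreated group (0.126% and 0.252% of all genes).

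MOB3C was the gene with an unadjusted p under 0.05. It stood at 0.403, 5.51, 0.324 and 1.40 CPM in the untreated CREBBP pools and at 1.603, 13.9, 1.6 and 0.774 CPM after IL4. It was higher in 3 of 4 lines, by 2.51- to 4.94-fold, and lower in line 4 (log2 fold change 1.25, SE 0.50, adjusted p = 0.924 by edgeR). VMP1 was the only one of the 9 that was higher in 4 of 4 lines (4.59% of all genes). Its levels were 28.7, 81.6, 27.6 and 43.4 CPM before and 31.8, 154, 35.1 and 56.3 CPM after IL4, with the largest step in line 2 (1.88-fold). By edgeR the log2 fold change was 0.49 (SE 0.23, adjusted p = 0.924).

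The remaining 7 genes had smaller fitted changes. MAP3K14 stood at 29.4, 30.55, 23.4 and 16.9 CPM before and at 33.3, 11.1, 23.8 and 16.6 CPM after IL4, so its largest step was to 0.364 of the untreated level, in line 2. HOMER2 went from 3.71, 2.81, 2.78 and 2.96 CPM to 1.77, 2.01, 3.71 and 1.76 CPM and was lower in 3 of 4 lines. SNX8 was at 82.2, 96.3, 67.7 and 47.7 CPM before and at 85.6, 116, 72.4 and 43.7 CPM after IL4, within 1.21-fold of the untreated level in every line. For these genes and for MKNK1, ARHGEF17, AP1B1 and RNF19B the fitted log2 fold changes lay between −0.42 and 0.39, with SE from 0.16 to 0.50, all with adjusted p of 0.924 or above.

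**Figure D3:**
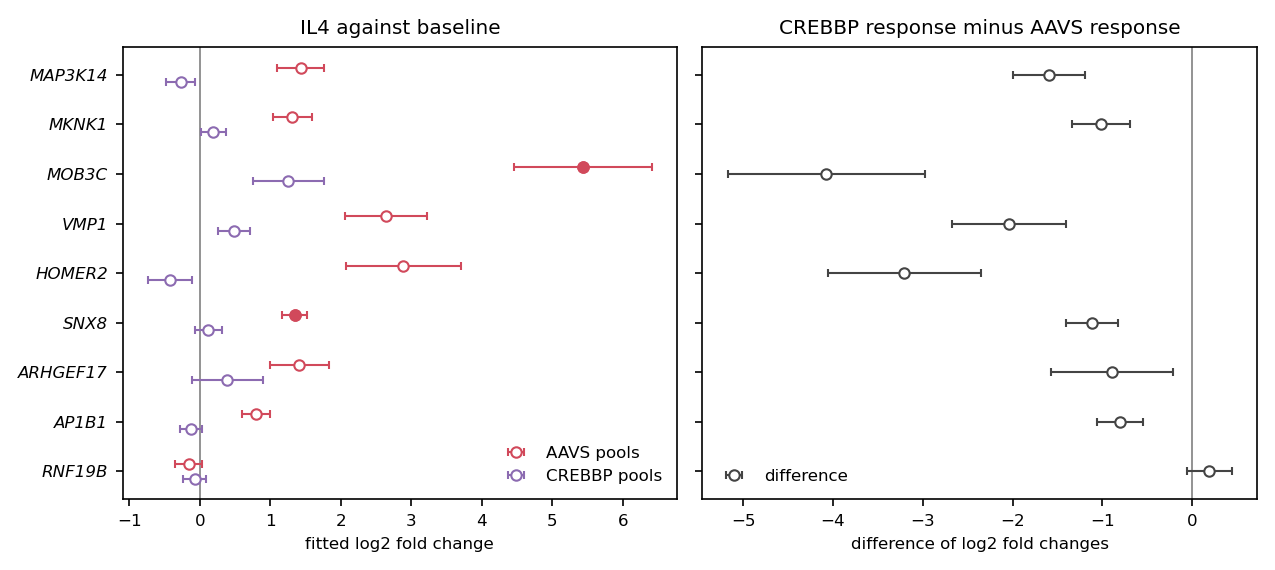
Fitted log2 fold changes with SE bars for the 9 genes. The left panel shows IL4 against baseline in AAVS and CREBBP pools (n = 4 lines each), with filled symbols for an adjusted p under 0.05 (MOB3C and SNX8 in the AAVS pools), and the right panel shows the CREBBP response minus the AAVS response, which is below 0 for 8 of 9 genes and filled for none.

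The CREBBP response minus the AAVS response was tested in 1 model of all 16 libraries, which did not pair the pools of a line. It was negative in 4 of 4 lines for 8 of 9 genes (19.5% of all genes), but 0 of 9 passed at an adjusted p under 0.05 by edgeR, beside 0.62% of the 21932 genes tested that were lower. At an unadjusted p under 0.05, 7 of 9 were lower (7.84% of all genes), and DESeq2 gave 6 of 9 an adjusted p under 0.05, beside 4.72% of the genes with an adjusted p that were lower. The fitted differences on the log2 scale were −4.07 for MOB3C (SE 1.10, adjusted p = 0.145), −3.20 for HOMER2 (SE 0.86, adjusted p = 0.14) and −2.04 for VMP1 (SE 0.63, adjusted p = 0.201). They were −1.59 for MAP3K14 (SE 0.40, adjusted p = 0.117), −1.12 for SNX8 (SE 0.29, adjusted p = 0.126), −1.01 for MKNK1 and −0.81 for AP1B1. ARHGEF17 (−0.89, SE 0.68) and RNF19B (0.19, SE 0.25) had unadjusted p of 0.216 and 0.455. The median was −1.12, against 0.05 over all genes and −2 over the 23 other core genes tested, of which 5 passed. Without line 2, 4 of the 9 genes passed, namely MAP3K14, MOB3C, HOMER2 and SNX8, and 1.17% of all genes passed as lower.

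CREBBP and AAVS pools were then compared directly. At baseline no gene passed (0 of 18936, 0%), and none of the 9 had an unadjusted p under 0.05 (12.8% of all genes) or an adjusted p under 0.05 with DESeq2. All fitted log2 differences were within 0.41 of 0. HOMER2, at 4.13 to 4.60 CPM in the AAVS pools and 2.78 to 3.71 CPM in the CREBBP pools, was the only gene whose groups did not overlap (1.06% of all genes), with a log2 fold change of −0.41 (SE 0.30, adjusted p = 0.6). MKNK1 (log2 fold change −0.24, SE 0.23) and HOMER2 were lower in 4 of 4 CREBBP pools (14.9% of all genes).

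With IL4, MAP3K14 was lower in the CREBBP pools, and was 1 of 9 genes to pass the test, beside 3.42% of the 19581 genes tested that were lower. It stood at 72.0, 39.0, 145 and 47.4 CPM in the AAVS pools and at 33.3, 11.1, 23.8 and 16.6 CPM in the CREBBP pools, without overlap. Each line was lower, to between 0.164 and 0.462 of the AAVS level, with a log2 fold change of −1.48 (SE 0.30, adjusted p = 0.0414). The call was not kept without line 1 (adjusted p = 0.125), line 3 (0.13) or line 4 (0.13), nor without the line as a block (0.108). The log2 fold changes there were −1.65, −1.18, −1.56 and −1.59. MAP3K14-AS1, on the opposite strand, had a mean of 8.79 CPM in AAVS IL4 and 2.74 CPM in CREBBP IL4.

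HOMER2 (log2 fold change −3.76, SE 0.82, adjusted p = 0.0502) and MOB3C (−4.84, SE 1.17, adjusted p = 0.0632) came close to the threshold. Values for VMP1 were −2.41 (SE 0.84, adjusted p = 0.131) and for MKNK1 −1.29 (SE 0.36, adjusted p = 0.0845). At an unadjusted p under 0.05, 6 of 9 were lower (14.9% of all genes). In total, 8 of 9 genes were lower in 4 of 4 lines (31.6% of all genes), and for 6 of 9 the CREBBP libraries lay below all AAVS libraries (12.9% of all genes). These were MAP3K14, MKNK1, MOB3C, VMP1, HOMER2 and SNX8, the genes named above for the AAVS pools, and both counts use the same 4 AAVS IL4 libraries. Without line 2, 5 of the 9 passed, and 8.09% of all genes passed as lower.

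Line 2 differed from the other lines here. IL4-treated MOB3C in the CREBBP pool was 0.54 of its AAVS level in line 2, and 0.0262, 0.0123 and 0.0121 in lines 1, 3 and 4. For VMP1 the ratio was 0.885 in line 2, against 0.0796, 0.0382 and 0.277 in the others, and for HOMER2 it was 0.422 against 0.0303, 0.0239 and 0.0738. Line 2 also had the highest ratio, by smaller margins, for MKNK1 (0.51 against at most 0.411) and SNX8 (0.719 against at most 0.617). For MAP3K14 and ARHGEF17 line 2 lay within the range of the other lines, and for AP1B1 (0.444) and RNF19B (0.53) it was the lowest of the 4.

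**Figure D4:**
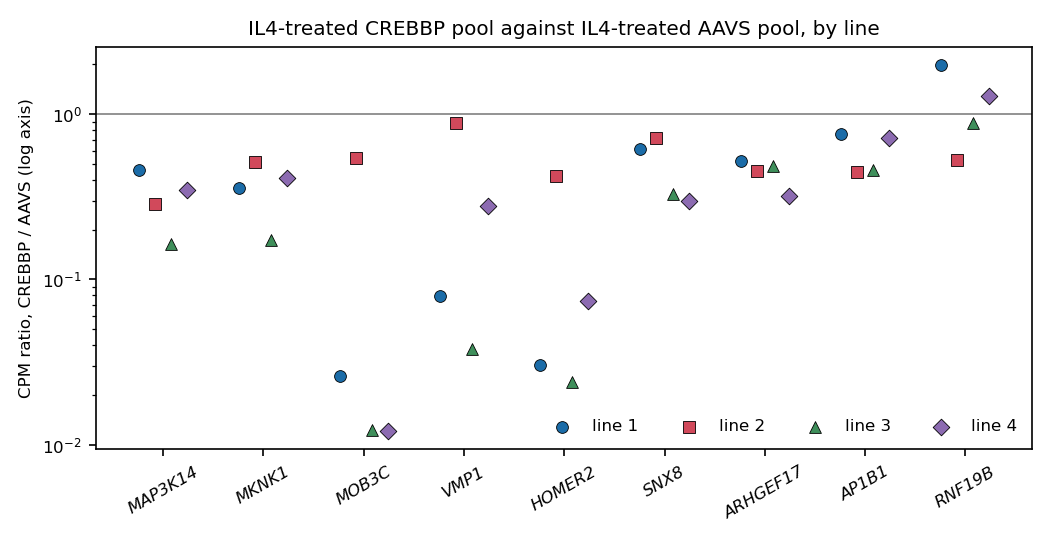
CPM in the IL4-treated CREBBP pool divided by CPM in the IL4-treated AAVS pool of the same line (log axis), for the 9 genes and 4 lines. All points but 2 for RNF19B lie below 1, and line 2 lies far above the other lines for MOB3C (0.54 against at most 0.0262), VMP1 and HOMER2.

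Genes that work with the 9 were followed as lists. In the AAVS pools after IL4, the lists for MKNK1 (MAP kinases to eIF4E, 9 genes), VMP1 (autophagosome formation, 11 genes), AP1B1 (AP-1 adaptor and clathrin, 10 tested) and RNF19B (RBR ubiquitin ligases, 10 genes) had 0 genes that passed, with medians of −0.34, −0.01, −0.04 and 0.18 on the log2 scale. At an unadjusted p under 0.05 they held 0, 1, 1 and 2 genes that were higher and none that was lower, beside 12.4% of all genes that were higher.

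The non-canonical NF-kappaB list, around MAP3K14, had 2 of 10 genes that rose (2.39% of all genes) and a median of 0.64. At an unadjusted p under 0.05, 4 of 10 were higher (12.4% of all genes). NFKB2, the precursor that MAP3K14 signalling processes to p52, went from 41.5, 32.6, 52.9 and 43.4 CPM to 133, 108, 278 and 88.9 CPM (log2 fold change 1.65, SE 0.23, adjusted p = 0.0225). BIRC3 (cIAP2), which helps to degrade MAP3K14 in resting cells, went from 70.4, 41.3, 53.4 and 103 CPM to 253.5, 163, 619 and 293 CPM (log2 fold change 2.14, SE 0.33, adjusted p = 0.0292). Both treated groups lay above the untreated ones, and in the CREBBP pools neither gene passed (−0.28 for NFKB2 and 0.20 for BIRC3). The difference in response passed the test for both, at −1.82 (SE 0.28, adjusted p = 0.0209) for NFKB2 and −1.84 (SE 0.36, adjusted p = 0.048) for BIRC3.

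In each of 3 other lists 1 gene passed the test in the AAVS pools, where 2.39% of all genes passed as higher. For SNX9 and LATS2, which are near or at 0 in the other groups, the low-count filter was met through AAVS IL4, so their direction was fixed by it and their levels are given without a p. HOMER1 was low in AAVS baseline and also met the filter through AAVS IL4, so its levels are given without a p too. Among 9 sorting nexins and retromer subunits it was SNX9, an endocytic nexin, at 141, 23.0, 316 and 32.8 CPM in AAVS IL4 and at most 1.54 CPM in the other 12 libraries. Among 8 HOMER partners it was HOMER1, a paralogue of HOMER2, at 3.94, 0.913, 9.36 and 2.96 CPM in AAVS IL4 and at most 0.517 CPM elsewhere. Both had their highest level in line 3, as HOMER2 did.

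Among 13 MOB proteins and NDR/LATS kinases the gene was LATS2, a Hippo pathway kinase, with 436 counts over the 4 AAVS IL4 libraries (0.356 to 12.3 CPM) and 0 counts in the other 12. CD2, among the T-cell markers, was also at 0 outside AAVS IL4. As the filter fixed the direction for LATS2, its levels do not test a response to IL4. As a bound on size only, a floor of 3 counts over the AAVS baseline group puts LATS2 at least 227-fold higher in AAVS IL4. The bound was 119-fold without line 3, which held 242 of the 436 counts. Without line 4, which held 17, the bound was 349-fold. The medians of these lists were 0.07 for the sorting nexins, −0.10 for the HOMER partners and −0.02 for the MOB and NDR/LATS list. With IL4, BIRC3 was lower in CREBBP than in AAVS pools (adjusted p = 0.029). None of the genes of these lists that could be tested passed in the CREBBP pools after IL4 or at baseline, where LATS2 and SNX9 did not meet the low-count filter.

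Similarity of pattern was described by Pearson's r of log2(CPM + 0.5), centred within line, over the 16 libraries, which share lines and treatments. Of the 28 pairs among the 8 genes without RNF19B, 28 were positive (0.582 to 0.957, median 0.849), the highest being MKNK1 with HOMER2 and MOB3C with VMP1 (0.957 and 0.956). These 8 genes were all higher in AAVS IL4 in 4 of 4 lines, which by itself favours a positive r. The values describe that shared rise and add no support to it, and no share over all gene pairs was computed. RNF19B with the others gave −0.307 to 0.310. The genes most like each member were IGF1R, KCNC4 and TAP1 for MAP3K14 (0.983 to 0.976), XBP1, HLA-C and PDE7A for MKNK1 (0.986 to 0.984), and ZNF615 and SAMSN1 for MOB3C (0.985 and 0.98). They were C5orf58, EPB41L3 and LINC00943 for VMP1 (0.988 to 0.984), ZNF649, CGAS and ZNF550 for HOMER2 (0.993 to 0.988), and SEPTIN8, IGHE and OPTN for SNX8 (0.97 to 0.96). IGHE, the heavy chain of IgE, was also among the 3 for ARHGEF17, with TRIM36 and CRIP2 (0.945 to 0.938), and had means of 0.898, 43.95, 0.604 and 1.28 CPM in the untreated and treated AAVS pools and the untreated and treated CREBBP pools, in that order. For AP1B1 they were FAM120AOS and VDR (0.941 and 0.921), and for RNF19B they were FXR2, CNTROB and CD2BP2 (0.949 to 0.918). FXR2 had means of 38.0 CPM in AAVS baseline and 35.5 CPM in AAVS IL4. Some of the similar genes were near 0 outside AAVS IL4. OPTN, EPB41L3 and LINC00943 had means of 20.2, 2.41 and 1.60 CPM there and at most 0.292, 0.0971 and 0.0683 CPM in the other groups. Others, such as PDE7A (57.3 CPM in AAVS baseline), were not.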

How the data were processed

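The authors sequenced ribosomal RNA-depleted RNA (paired-end, 151 bp, with an input of 50 ng per the labels and of 2 ng in the methods for primary cells, to which those for the lines refer), trimmed reads with Cutadapt 2.3, checked them with FastQC 0.11.8 and MultiQC 1.7, mapped them to GRCh38 with STAR 2.7.8a and assigned them to genes with RSEM 1.3.3, per the labels and the study's methods. The authors deposited estimated counts (RSEM expected counts) as whole numbers, 1 file per library, not normalized. The study names DESeq2 for its own tests. Its methods average technical replicates of primary cells, and the section on the lines refers back to them without saying whether the deposited counts are such averages.

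CPM was computed from each library's total count (19649735 to 61981976, median 44724334), so the lowest counts, such as those of ARHGEF17 in line 2, carry large counting error. With R 4.3.3 and edgeR 4.0.16, genes were filtered by filterByExpr, scaled by TMM factors and tested by edgeR's quasi-likelihood method, in which each line formed a block. The difference in response was fitted over 16 libraries with a term for each pool. Adjusted p-values follow Benjamini and Hochberg over every gene tested, with a threshold of 0.05. The SE is the fold change divided by the root of the F statistic. Replicates are different cell lines, with 1 library per line and condition. With the line as a block, p-values weigh a change against how much that change varied from line to line. For the difference in response, the pool terms weigh it against how much the IL4 response varied between lines within each targeting. The AAVS and CREBBP pools of a line were not paired in that fit. Same-numbered libraries come from the same line, and their deviations from the group means correlated with medians of 0.233 to 0.683 by line (lowest pair −0.0806, in line 3). No pair of replicates agreed within sampling noise (chi-square per degree of freedom of at least 98.7). The step was checked on simulated counts with 200 changed genes.

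Alternatives were DESeq2 1.42.0, other scaling, other filters, no block, all libraries in 1 fit, and leaving out each line. The use of library totals without scaling factors was chosen after the data were seen. The genes, pathway lists and marker lists were chosen with earlier results of these data known. The genes named are all 9 members, list genes with an adjusted p under 0.05 (up to 4 a list), for each member the 3 most similar genes, overlapping genes, CREBBP, and the leading or absent markers. A few of these genes, and 1 pathway list, are not reported here. IGHE was described further after its values were seen. Positions are from GENCODE 44, which holds 62639 (99.88%) of the 62714 genes, and promoters from RefSeq (GRCh38.p14). Figures used matplotlib 3.10.9.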

Additional observations from a re-analysis of the deposited data

Results flagged for a closer look

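Each gene was checked in each group for a library far from the other 3 lines (Dixon's gap test, 36 combinations, of which chance sets apart about 5%), and 3 stood out. MOB3C was high in line 2 of CREBBP IL4, at 13.9 CPM against 0.774 to 1.603 CPM in the other lines. HOMER2 was high in line 3 of CREBBP IL4, at 3.71 CPM against 1.76 to 2.01 CPM. AP1B1 was low in line 4 of AAVS baseline, at 103 CPM against 229 to 250.3 CPM. No difference in IL4 response between CREBBP and AAVS pools passed the adjusted threshold for any of the 9 genes with edgeR's quasi-likelihood test, and for none did the lines of the AAVS pools all move one way and those of the CREBBP pools all the other.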

How the results depend on the processing

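The number of the 9 genes passing the test depended on the settings, whereas the median fold change kept its direction in the 3 comparisons with AAVS IL4. For IL4 in the AAVS pools (2 genes, median 1.41), 6 passed with no filter on low counts, 0 with at least 10 counts in every library (ARHGEF17 not tested), 8 with DESeq2, 6 with all 16 libraries in 1 fit, 1 with library totals and 0 to 6 without single lines, with medians of 1.28 to 1.56. For CREBBP against AAVS pools with IL4 (1 gene), these settings gave 5, 3, 5, 6 and 4 genes, 0 to 5 without single lines, and 2 with median-of-ratios scaling. For the difference in response (0 genes), 5 passed without the filter, 6 with DESeq2, 1 with library totals and 0 to 4 without single lines. Line 2 was the line whose omission gave 6, 5 and 4 genes. The line pairs the libraries. Without the replicate block, 3, 1 and 0 of the 9 passed in these comparisons, VMP1 joining in the first (adjusted p = 0.0238) and HOMER2 replacing MAP3K14 in the second (0.0339), and no other member's call changed. Over all genes, the counts were 488, 859 and 140. They became 1851, 3466 and 1191 without the filter, 25, 682 and 69 with at least 10 counts, 2062, 4154 and 1099 with DESeq2, and 467, 540 and 2 without the block. In 1 fit of all libraries the first 2 became 1270 and 4393. Leaving out lines gave 64 to 1035, 25 to 2547 and 16 to 264. In the 2 comparisons with 0 genes, IL4 in CREBBP pools gave 40 without the filter and 1 with DESeq2, and the baseline comparison gave 586 without the filter, 511 with DESeq2 and 0 to 515 without single lines. Library totals moved the median of all genes from −0.05 to −0.33 for CREBBP against AAVS pools with IL4 (1331 genes, 1275 of them lower, against 859 and 670), from −0.03 to −0.13 at baseline and from 0.05 to −0.16 for the difference. A few log2 changes that passed no test turned sign. RNF19B in the difference became −0.0218 with library totals. Without single lines, RNF19B ran from −0.0728 (without line 1) to 0.382 at baseline and from −0.184 to 0.00517 (without line 3) after IL4 in CREBBP pools. SNX8 after IL4 in CREBBP pools ran from −0.088 (without line 2) to 0.226, and ARHGEF17 at baseline from −0.476 to 0.253 (0.0414 without line 2, 0.253 without line 4). The causes were not tested. With 4 lines a group, 1 line can decide a call.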
